A study of Mus musculus with 2 samples.

Results

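Transcripts of 8 complement genes were followed across the macrophages, monocytes, dendritic cells (DCs), neutrophils and stromal cells of the mouse omentum. The genes were taken by symbol from the 19960 genes of the deposited matrices, and all 8 were found. They encode components (*C1qa*, *C1qb*, *C1qc*, *C3*, *Cfb* and *Cfp*) and receptors (*C3ar1* and *C5ar1*). The data are 2 droplet-based single-cell RNA libraries, 1 from WT mice and 1 from *Postn*-DTR mice. *Postn*-DTR mice were heterozygous for a diphtheria toxin receptor placed by gene targeting in *Postn*, so the *Postn* promoter decides which cells the toxin can kill. Both groups received diphtheria toxin (DT) and were taken 5 days later, and each library pooled several animals whose age is not stated. The series describes leukocytes, no sort is stated, and stromal cells were present in both libraries. With 1 library per group there is no replicate. No test between groups was made, and every interval below is a 95% interval that covers counting error only.

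Complement is a cascade of plasma proteins that tags particles for uptake and recruits phagocytes. C1q starts the classical pathway by binding antibody or surface ligands, C3 is the protein on which all pathways converge, factor B (*Cfb*) forms the alternative pathway convertase with C3b, and properdin (*Cfp*) stabilizes that convertase. The small fragments C3a and C5a act on cells through the receptors C3aR1 and C5aR1. The liver makes most circulating complement, whereas C1q comes mainly from macrophages and related myeloid cells, and properdin is made by leukocytes.

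The *C1q* chain genes lie side by side on the minus strand of chromosome 4 (GRCm38, GENCODE annotation), in the order *C1qb*, *C1qc*, *C1qa*, from 136880129 to 136898803, a span of 18675 bp. *C3ar1* lies on chromosome 6 (122847138 to 122856161), *C5ar1* on chromosome 7 (16246743 to 16259540), *Cfb* and *C3* on chromosome 17 (34856374 to 34862518 and 57203970 to 57228136) and *Cfp* on chromosome X (20925454 to 20931555), all on the minus strand. Because the *C1q* genes were found together in the same cells, the sequence upstream of those in the RefSeq promoter table for GRCm38 is shown, 5′ to 3′ on the gene's strand. *C1qb* covers chr4:136886201-136886450. *C1qc* covers chr4:136893066-136893164, where the remaining bases of its window lay within the annotated gene and were left out. Capitals mark the letters ACTTCCT, which the opposite strand would read as AGGAAGT, a motif of the ETS type to which myeloid factors such as PU.1 bind, chosen after the sequences had been seen.

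C1qb: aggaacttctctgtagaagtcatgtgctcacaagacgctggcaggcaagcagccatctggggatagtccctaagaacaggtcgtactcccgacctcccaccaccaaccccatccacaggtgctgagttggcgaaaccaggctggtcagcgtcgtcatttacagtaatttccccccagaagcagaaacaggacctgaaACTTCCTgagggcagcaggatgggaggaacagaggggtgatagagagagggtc
C1qc: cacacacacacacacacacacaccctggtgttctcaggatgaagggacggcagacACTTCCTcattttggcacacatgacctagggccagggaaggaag

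The capital letters begin 53 bases upstream of the RefSeq start of *C1qb* and 195 bases upstream of that of *C1qc*. Searched on both strands, this run of 7 letters was found in 2525 of 32851 RefSeq windows of 250 bases (7.69%), and in 3 of the 6 member genes with a window (*C1qb*, *C1qc* and *C5ar1*). *C1qa* and *Cfb* had no entry. A match describes letters only and is not a binding site.

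After filtering, 8654 WT and 5727 *Postn*-DTR cells remained, with 80152113 and 81011255 unique molecular identifiers (UMIs, each standing for 1 captured transcript) and 5635 and 8472 UMIs in the median cell. The libraries shared 65 barcode sequences. Cells were clustered without the 8 genes and without other listed complement genes, and clusters were named from markers that include no complement gene. The macrophage-like cluster was led by *Ltc4s*, *Saa3*, *Alox15*, *Prg4*, *Pf4*, *Lyve1* and *Folr2*, and held 122 WT cells (1.41%) and 327 *Postn*-DTR cells (5.71%), with a median of 5070 and 3706 UMIs. The monocyte-like cluster (*Ms4a4a*, *Vcan*, *Ace*) held 111 and 142 cells at 8696 and 8345 UMIs. The DC-like cluster (*Cd209a*, *Fscn1*, *Clec4b1*, *Mgl2*) held 438 and 72 cells at 11093 and 7700 UMIs, beside cDC1-like cells (151 and 15) and plasmacytoid DC-like cells (61 and 13). Neutrophils fell into 3 stages, granulocyte precursors (*Elane*, *Mpo*; 175 and 285 cells at 33666 and 23982 UMIs), immature neutrophils (*Ltf*, *Ngp*; 189 and 272 cells at 9823 and 5439 UMIs) and mature neutrophils (*Csf3r*, *Cxcr2*; 54 and 472 cells at 3179 and 2815 UMIs). The stromal cluster held 42 and 19 cells at 23778 and 27591 UMIs, with all 6 fibroblast and all 6 mesothelial markers in at least 10% of the cells of both libraries. The targeted gene, *Postn*, gave 50 UMIs in 9 of the 42 WT stromal cells and 9 UMIs in 4 of the 19 *Postn*-DTR ones, a level of 0.650 and 0.161 UMIs per 10000.

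A level below is the mean over the cells of a class of a gene's UMIs per 10000 UMIs of the cell. UMIs count transcript ends and are not divided by length, so levels are set side by side for 1 gene across classes, not between genes. A log2 ratio is that of the *Postn*-DTR level over the WT level, 0.01 UMIs per 10000 being added to both, for genes with at least 20 UMIs in the class. The interval beside it belongs to the ratio of summed UMIs, in which deep cells weigh more, so the ratio of the means can lie outside it. T-like cells (3152 WT and 508 *Postn*-DTR cells, median 4650 and 4306 UMIs) served as the class that should lack most of these transcripts.

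**Figure D1:**
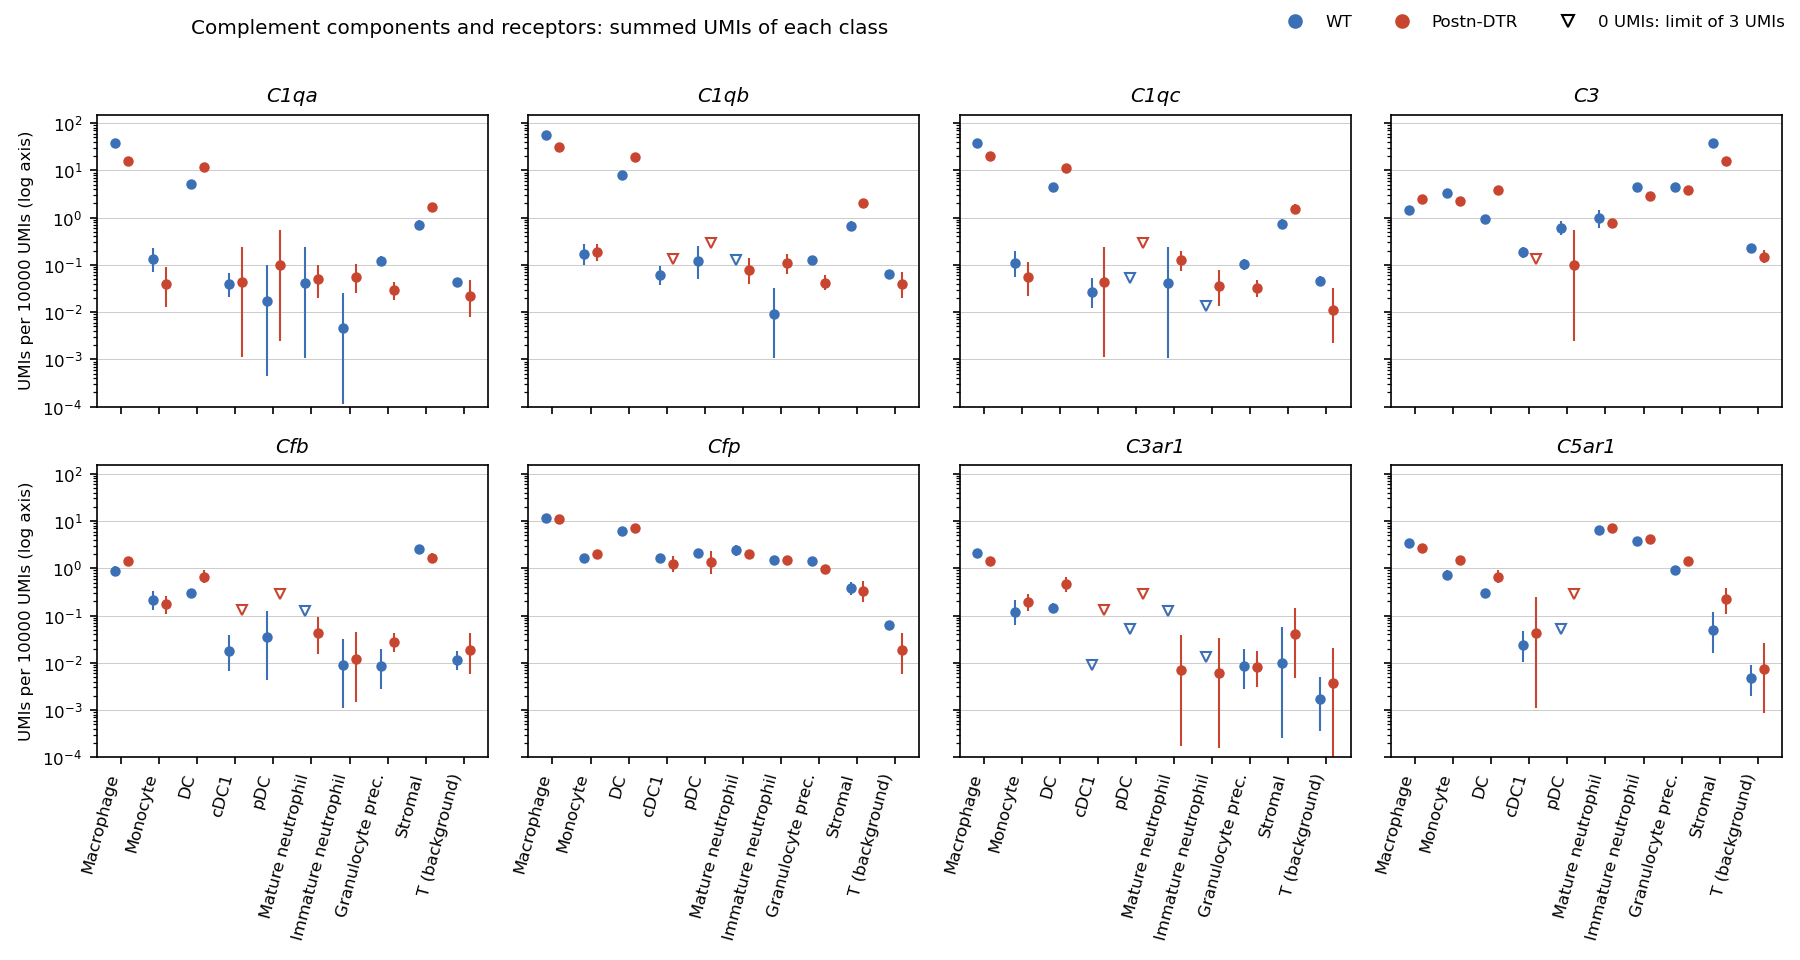
Level of each gene in each class as summed UMIs per 10000 UMIs of the class (log axis), WT in blue and *Postn*-DTR in red, with exact Poisson 95% intervals as bars and open triangles at the limit of 3 UMIs where a class had none. The *C1q* genes stand highest in macrophage-like and DC-like cells, *C3* in stromal cells, *C3ar1* in macrophage-like cells and *C5ar1* in mature neutrophils, and *Cfp* is spread over all myeloid classes.

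The *C1q* genes, which encode the A, B and C chains of the hexameric C1q molecule, were highest in macrophage-like cells of both libraries. *C1qa* had a level of 36.3 in WT and 17.4 in *Postn*-DTR (2760 and 2595 UMIs), *C1qb* 53.5 and 32.8 (4080 and 5175 UMIs), and *C1qc* 35.6 and 22.2 (2763 and 3416 UMIs). All 3 chains were thus lower per macrophage-like cell in *Postn*-DTR. The log2 ratio was -1.06 for *C1qa* (-1.35 to -1.19 on summed UMIs), -0.71 for *C1qb* (-0.89 to -0.78) and -0.68 for *C1qc* (-0.94 to -0.80). The median macrophage-like cell had 33.9 UMIs per 10000 of *C1qa* in WT and 13.0 in *Postn*-DTR, and the middle 50% of the cells ran from 20.5 to 47.4 and from 4.27 to 23.6. These ranges overlapped only slightly, whereas the single highest cells were alike (118.8 and 133.6).

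Nearly every macrophage-like cell held a *C1q* transcript. All 3 chains were found in 117 of 122 WT cells and in 255 of 327 *Postn*-DTR cells. Thinned to 1000 UMIs per cell, which left out 3 WT and 52 *Postn*-DTR cells, 93.3% and 69.8% of the cells retained a *C1qa* UMI (97.5% and 83.8% unthinned), 95.8% and 86.5% a *C1qb* UMI, and 94.1% and 77.5% a *C1qc* UMI. The corresponding shares of T-like cells were 0.127% and 0% for *C1qa*, 0.318% and 0.792% for *C1qb*, and 0.287% and 0% for *C1qc*. A count of 0 of 505 *Postn*-DTR T-like cells allows a share of up to 0.594%. For genes below with 0 of 3140 WT T-like cells, such as *C5ar1*, the limit is 0.0955%. The shares in macrophage-like cells thus lay far above the T-like ones and were lower in *Postn*-DTR for each chain.

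The balance of the chains also differed between the libraries. *C1qa* made up 28.7% of the *C1q* UMIs of WT macrophage-like cells (27.8 to 29.7, of 9603 UMIs) and 23.2% in *Postn*-DTR (22.4 to 24.0, of 11186 UMIs), and *C1qb* 42.5% (41.5 to 43.5) and 46.3% (45.3 to 47.2). In DC-like cells the *C1qa* share was 29.0% (28.1 to 29.9) and 27.9% (26.2 to 29.7), and in WT T-like cells, from 265 UMIs, 27.5% (22.3 to 33.4). The *C1qa* share of *Postn*-DTR macrophage-like cells was therefore below that of WT macrophage-like cells and of DC-like cells by more than counting error.

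The components *C3* and *Cfb* went the other way in macrophage-like cells. *C3* had a level of 1.35 in WT and 2.44 in *Postn*-DTR (108 and 417 UMIs), with a log2 ratio of 0.85 (0.46 to 1.09). The cell with the most *C3* UMIs gave 46 of the 108 in WT and 64 of the 417 in *Postn*-DTR. For *Cfb*, the levels were 0.640 (65 UMIs) and 1.48 (235 UMIs), a log2 ratio of 1.20 (0.27 to 1.10). Both were uneven between cells, and the median cell was at 0 for both genes in both libraries. After thinning, 8.40% and 15.3% of the cells retained a *C3* UMI and 5.04% and 12.4% a *Cfb* UMI, against 2.20% and 0.792% (*C3*) and 0.127% and 0% (*Cfb*) of T-like cells. *Cfp* differed little, with a level of 9.77 and 8.29 (866 and 1816 UMIs) and a log2 ratio of -0.24 whose interval on summed UMIs reached both sides of 0 (-0.23 to 0.01).

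Both receptors were slightly lower in *Postn*-DTR macrophage-like cells. *C3ar1*, the C3a receptor, had a level of 2.23 and 1.74 (151 and 238 UMIs), a log2 ratio of -0.36 (-0.82 to -0.22). *C5ar1*, the C5a receptor, had a level of 3.98 and 3.31 (248 and 435 UMIs), a log2 ratio of -0.27 (-0.60 to -0.14). After thinning, 25.2% and 11.6% of the cells retained a *C3ar1* UMI and 35.3% and 22.2% a *C5ar1* UMI, where T-like cells gave at most 0.396%. With cells thinned to 1000 UMIs the log2 ratio of *C3ar1* was -1.13 and that of *C5ar1* -0.59.

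Of the 8 genes, 1 was at least 2-fold higher in *Postn*-DTR macrophage-like cells (*Cfb*), where 7.5% of all 7689 genes measured there were, and 1 was at least 2-fold lower (*C1qa*), where 9.4% of all genes were. Their median log2 ratio was -0.31 and that of all genes -0.15. The share of the members past 2-fold was thus near that of genes in general. Which genes passed depended on the summary of cells, since *Cfb* was at 0.67 on summed UMIs. With cells thinned to 1000 UMIs *C1qa* no longer passed (-0.92) and *C3ar1* did (-1.13), the latter from only 37 and 39 UMIs.

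The macrophage-like class changed in make-up between the libraries, and so the genes were read within 2 finer clusters. One, led by *Lyve1*, *Folr2* and *Cbr2*, held 103 WT and 184 *Postn*-DTR cells (median 4650 and 2076 UMIs). The other, led by *Alox15*, *Prg4* and *Saa3*, genes known from large peritoneal macrophages, held 19 and 143 cells (10313 and 7480 UMIs). *C1qa* was lower in *Postn*-DTR in both, at 37.1 and 22.3 in the *Lyve1*/*Folr2* cluster (log2 ratio -0.73) and at 31.8 and 11.2 in the *Alox15*/*Prg4* cluster (-1.51). *C1qb* (54.7 and 37.7, then 47.1 and 26.4) and *C1qc* (34.9 and 25.3, then 39.1 and 18.2) followed the same direction. *C3* was higher in *Postn*-DTR in both, at 1.46 and 2.89 in the former and at 0.762 and 1.86 in the latter.

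The other genes differed between these clusters. *Cfp* was higher in the *Alox15*/*Prg4* cluster (19.4 in WT and 13.6 in *Postn*-DTR) than in the *Lyve1*/*Folr2* cluster (7.99 and 4.19), and lower in *Postn*-DTR within each, by log2 ratios of -0.52 and -0.93. With equal weight for both clusters in both libraries, an alternative chosen after the data were seen, its log2 ratio was -0.62 instead of -0.24. *C3ar1* was 2.13 and 2.29 in the *Lyve1*/*Folr2* cluster (log2 ratio 0.11) and 2.79 and 1.04 in the *Alox15*/*Prg4* cluster (-1.42), so its lower level in the whole class lay in the latter. *C5ar1* followed *C3ar1*, with 4.12 and 4.32 (0.07) against 3.23 and 2.01 (-0.68). *Cfb* was 0.507 and 1.30 in the former (1.34) and 1.36 and 1.72 in the latter (0.34).

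**Figure D2:**
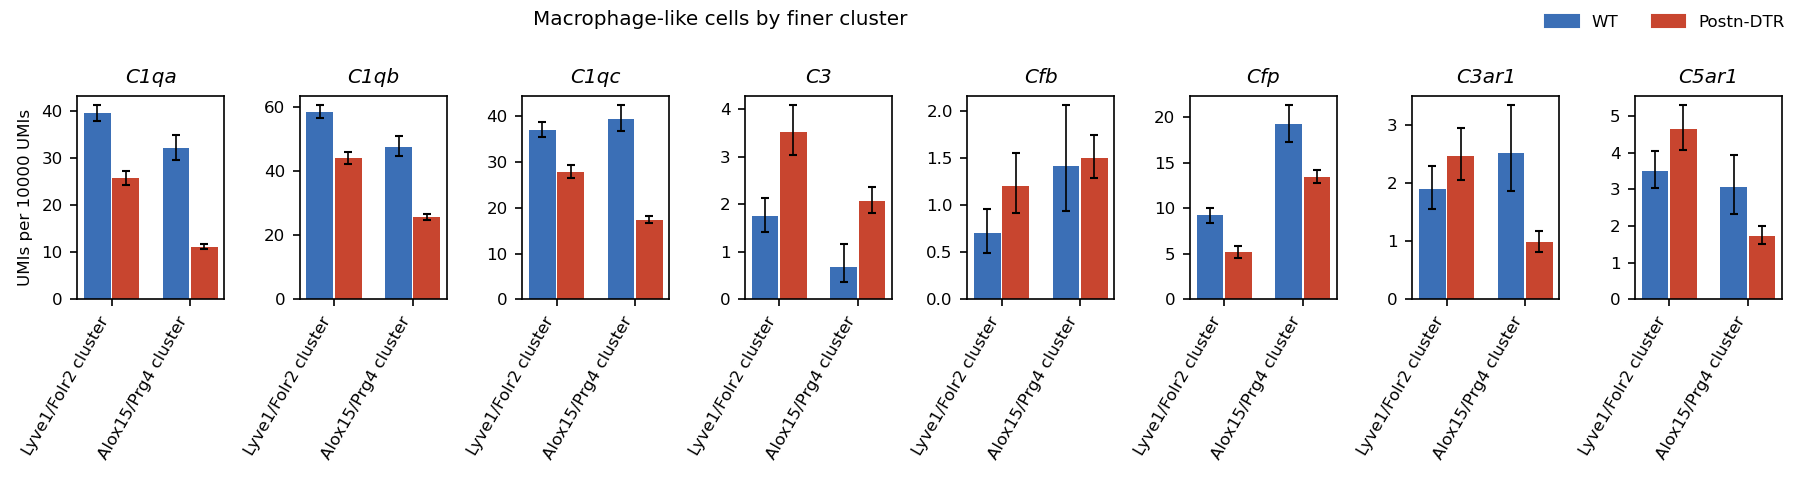
Summed UMIs per 10000 UMIs (linear axes from 0) of each gene in the *Lyve1*/*Folr2* and *Alox15*/*Prg4* clusters of macrophage-like cells, WT in blue (103 and 19 cells) and *Postn*-DTR in red (184 and 143 cells), with exact Poisson 95% intervals. The *C1q* bars are lower and the *C3* bars higher in *Postn*-DTR in both clusters, while *C3ar1* and *C5ar1* are lower in *Postn*-DTR in the *Alox15*/*Prg4* cluster alone.

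Markers of other cells moved as well. The 7 tissue macrophage markers summed to 64.7 UMIs per 10000 in WT macrophage-like cells and to 26.6 in *Postn*-DTR, and the 6 peritoneal macrophage markers to 11.9 and 30.6. Mature neutrophil markers summed to 0.616 and 8.66, monocyte markers to 2.16 and 12.2 and plasma cell markers to 3.62 and 11.9. Their part in the differences of the complement genes was not tested.

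DC-like cells were the other class with high *C1q* levels, and here the direction was opposite. *C1qa* had a level of 4.78 in WT and 11.1 in *Postn*-DTR (2668 and 745 UMIs), with a log2 ratio of 1.22 (1.09 to 1.33). For *C1qb*, the levels were 8.07 and 19.6 (log2 ratio 1.28, 1.18 to 1.37), and for *C1qc* 4.19 and 10.4 (1.31, 1.19 to 1.44). *C3ar1* (0.197 and 0.625, log2 ratio 1.62, 0.99 to 2.30) and *C5ar1* (0.334 and 0.882, 1.38, 0.62 to 1.64) were also higher in *Postn*-DTR, from 29 and 42 *Postn*-DTR UMIs. *Cfb* was 0.202 and 0.671 (1.68, 0.62 to 1.64 on summed UMIs), but thinned to 1000 UMIs no *Postn*-DTR cell of 72 held a *Cfb* UMI. *Cfp* was only slightly higher, at 5.53 and 6.67 (log2 ratio 0.27, 0.08 to 0.37). *C3* was 0.931 and 2.70, but 129 of its 239 *Postn*-DTR UMIs came from 1 cell, and its log2 ratio of 1.52 was 0.80 without the top cell of each library. Of the 8 genes, 7 were at least 2-fold higher in *Postn*-DTR, against 4.48% of all 9995 genes measured in DC-like cells, and none was at least 2-fold lower, against 14.2% of all genes. For *C3ar1*, *C5ar1* and *Cfb* the intervals reached below 2-fold. The median log2 ratio was 1.34 for the 8 genes and -0.20 for all genes.

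These transcripts were not spread over the DC-like cells. Thinned to 2000 UMIs, 74 of 434 WT cells (17.1%) and 26 of 69 *Postn*-DTR cells (37.7%) held at least 3 *C1q* UMIs, 344 and 41 cells held none, and only 16 and 2 lay between. Cells with at least 10 *C1q* UMIs before thinning (79 and 24) held 98.9% and 98.6% of the *C1q* UMIs of the class.

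To describe these cells further, DC-like cells were divided by a UMI of *Cd209a*, *Flt3* or *Zbtb46*, 3 of the 7 DC markers. This division was not among the planned results. In cells with at least 3 *C1q* UMIs, *Cd209a* was at 0.135 in WT and 0.192 in *Postn*-DTR, and *Flt3* and *Zbtb46* were at 0. The division is therefore not independent of *C1q*, and the shares below are a description. Of the cells with such a UMI, 1 of 180 in WT (0.556%, 0.0141 to 3.06) and 1 of 23 in *Postn*-DTR (4.35%, 0.11 to 21.9) held at least 3 *C1q* UMIs. Of the cells without, 73 of 254 (28.7%, 23.3 to 34.7) and 25 of 46 (54.3%, 39.0 to 69.1) did. *C1qa* levels were 0.0556 and 0 with a DC marker and 7.87 and 19.1 without. *C5ar1* was at 0 in the cells with a DC marker in both libraries and at 0.551 and 1.41 in those without, and *C3ar1* at 0.0556 and 0 against 0.315 and 1.09. In cells with a DC marker a count of 0 allows a level of up to 0.0833 in WT and 0.652 in *Postn*-DTR. *Cfp* was present on both sides, at 5.19 and 3.04 with a DC marker and at 5.93 and 8.80 without. Thus, *C1q* and, as far as this depth shows, the receptors lay mostly in DC-like cells without a UMI of these 3 genes. Other DC markers did not all follow. *Clec10a* was 1.15 in WT and 2.69 in *Postn*-DTR in cells with at least 3 *C1q* UMIs, and 1.29 and 3.29 in cells with none. *Mgl2* was 1.49 and 0.192 against 1.09 and 2.44, and *Ffar4* 0.135 and 0.192 against 0.174 and 0.122. Whether the name of the cluster describes the *C1q*-positive cells was therefore not settled.

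The *C1q*-positive cells of the DC-like cluster held macrophage markers but differed from the macrophage-like cluster. *Fcgr1* (1.08 in WT and 1.35 in *Postn*-DTR) and *Cd68* (3.92 and 3.65) were above macrophage-like cells (0.472 and 0.393, then 2.26 and 2.25). *Mertk* was at 0.405 and 1.54 against 0.849 and 0.677. *Csf1r* (5.88 and 2.885), *Adgre1* (1.62 and 0.769) and *Cd14* (4.12 and 10.6) were below (7.5 and 4.26, 2.45 and 2.58, 9.53 and 16.1). Each was higher than in the *C1q*-negative cells. *Apoe*, an apolipoprotein gene high in macrophages, was at 32.9 in WT and 158.5 in *Postn*-DTR in cells with at least 3 *C1q* UMIs, at 2.43 and 1.83 in cells with none, and at 150 and 235.5 in macrophage-like cells. *H2-Ab1*, an MHC class II gene, was at 85.7 and 68.7 in the *C1q*-positive cells, close to 84.3 and 74.4 in the *C1q*-negative ones, while macrophage-like cells had 23.9 and 5.55. *Lyve1* was at 0 (which allows up to 0.203) and 0.192 in the *C1q*-positive cells and at 12.8 and 2.86 in macrophage-like cells. In the *C1q*-positive cells *Cfp* was 9.32 and 10.8 against 4.90 and 4.63 in the *C1q*-negative ones, *C3* 2.43 and 7.12 against 0.538 and 0 (which allows up to 0.366), and *Cfb* 0.878 and 1.35 against 0.0291 and 0.122. Of the 37 thinned *C3* UMIs behind the *Postn*-DTR value, 16 came from 1 cell, and the level was 4.20 without it. Without the top cell the WT *Cfb* value was 0.480. These levels come from cells thinned to 2000 UMIs and describe cells chosen by their *C1q* UMIs, with no test. The higher levels of the DC-like class in *Postn*-DTR accompanied the larger share of such cells in it. Macrophage markers summed to 18.1 and 73.4 in the class as a whole, and their part in the differences was not tested.

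**Figure D3:**
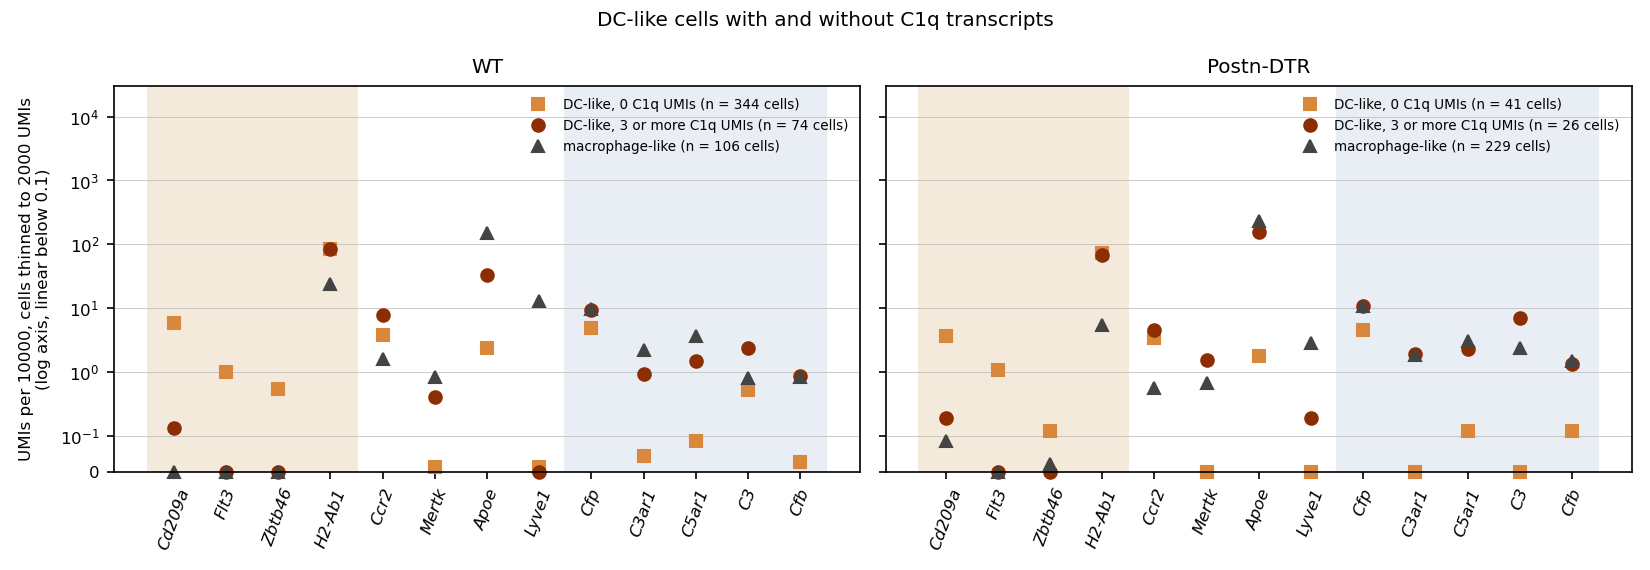
Levels (UMIs per 10000 in cells thinned to 2000 UMIs, log axis, linear below 0.1) of DC genes, macrophage genes and complement genes in DC-like cells with 0 *C1q* UMIs (squares), DC-like cells with 3 or more (circles) and macrophage-like cells (triangles). In both libraries the *C1q*-positive cells gave no *Flt3* or *Zbtb46* UMI, have *H2-Ab1* near the level of the *C1q*-negative DC-like cells, and have more *Apoe* than those cells. In *Postn*-DTR *Zbtb46* was also low in the *C1q*-negative cells (0.122), and a count of 0 in the *C1q*-positive ones allows up to 0.577.

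In cDC1-like and plasmacytoid DC-like cells *Cfp* was the gene with a clear signal. Its level was 1.59 in WT and 1.25 in *Postn*-DTR in cDC1-like cells (549 and 29 UMIs) and 2.13 and 1.37 in plasmacytoid DC-like cells (119 and 14 UMIs), where T-like cells had 0.0342 and 0.0290. *C3* gave 61 and 0 UMIs in cDC1-like cells and 35 and 1 UMIs in plasmacytoid DC-like cells, of which 39 and 27 of the WT UMIs came from 1 cell each. *C3ar1* gave no UMI in either class, and *C5ar1* none in plasmacytoid DC-like cells and 8 and 1 in cDC1-like cells. Of 3 members measured in cDC1-like cells, none was at least 2-fold higher in *Postn*-DTR (4.54% of all genes, and 20.2% were at least 2-fold lower). *C1qb* and *C3* had no *Postn*-DTR UMI, but their WT levels of 0.0695 and 0.165 are too low for a count of 0 in so few cells to show a 2-fold difference. Of 2 measured in plasmacytoid DC-like cells, none was higher (5.48%) and *C3* was lower (14.1%). The few *Postn*-DTR cells of these classes (15 and 13) limit what could be detected, and 0 UMIs allow up to 0.130 UMIs per 10000 in cDC1-like and 0.292 in plasmacytoid DC-like cells.

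Monocyte-like cells had little *C1q*. *C1qb* had a level of 0.290 and 0.289 (17 and 24 UMIs), *C1qa* of 0.106 and 0.0344 and *C1qc* of 0.130 and 0.0780, and after thinning 1.80% and 2.82% of the cells held a *C1qb* UMI, against 0.318% and 0.792% of T-like cells. *C3* was clearly present, at 3.04 and 1.97 (332 and 291 UMIs), with a log2 ratio of -0.63 (-0.79 to -0.33). *Cfp* was 1.41 and 1.77 (log2 ratio 0.33, -0.01 to 0.58), and *Cfb* 0.190 and 0.166, from 21 and 22 UMIs. The receptors were higher in *Postn*-DTR: *C5ar1* was 0.867 and 1.61 (72 and 189 UMIs), with a log2 ratio of 0.89 (0.62 to 1.43), and *C3ar1* was 0.0865 and 0.157 (12 and 25 UMIs), with an interval that held 0 (-0.36 to 1.82). Mature neutrophil markers, which belong to cells with high *C5ar1*, summed to 1.81 in WT and 55.3 in *Postn*-DTR monocyte-like cells, and their part in the *C5ar1* difference was not tested. None of the 6 genes measured was past 2-fold in either direction, where 4.33% of all 7692 genes were higher and 8.36% lower.

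Along the neutrophil stages of the main clustering, the C5a receptor and *C3* had opposite orders. *C5ar1* was 0.965 in WT and 1.59 in *Postn*-DTR in granulocyte precursors, 4.16 and 3.97 in immature neutrophils, and 6.82 and 7.32 in mature neutrophils. *C3* was 4.86 and 4.22 in precursors, 4.13 and 2.55 in immature neutrophils and 1.22 and 0.816 in mature neutrophils. The *C5ar1* intervals on summed UMIs did not overlap between the stages in either library (0.824 to 0.980, 3.6 to 4.12 and 5.43 to 7.51 in WT). For *C3*, those of WT precursors (4.31 to 4.66) and immature neutrophils (4.08 to 4.63) overlapped and that of mature neutrophils lay below (0.615 to 1.46), while in *Postn*-DTR all 3 were apart. By cell counts, the precursor class included most cells of a finer cluster led by *Orm1*, *Camp* and *Ngp* (52 and 113 cells). Their *C3* level was above that of the *Ltf*-led cells, as given under other observations. The order of *C3* is thus that of the main clustering and may differ at the finer resolution. Over the 9 classes described, *C5ar1* was next highest in macrophage-like cells, whose interval overlapped that of immature neutrophils in WT (2.98 to 3.83) and not in *Postn*-DTR (2.38 to 2.88). Precursors and monocyte-like cells followed with overlapping intervals in both libraries, and then DC-like cells.

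Between the libraries the mature stage did not differ in *C5ar1* beyond counting error (152 and 1030 UMIs, log2 ratio 0.10, -0.07 to 0.43), nor did the immature stage (856 and 670 UMIs, -0.07, -0.07 to 0.23 on summed UMIs). Precursors had more *C5ar1* in *Postn*-DTR (528 and 1048 UMIs, log2 ratio 0.71, 0.52 to 0.82), but with cells thinned to 1000 UMIs the log2 ratio was 0.06. Precursor markers summed to 249.4 in WT and 173.3 in *Postn*-DTR precursors, immature neutrophil markers to 470.7 and 599.3 and monocyte markers to 72.9 and 103.7, and their part in the *C5ar1* difference was not tested. *C3* was lower in *Postn*-DTR in the immature stage (log2 ratio -0.70, -0.74 to -0.42) and slightly so in precursors (-0.20, -0.33 to -0.18). In the mature stage it rested on 23 and 110 UMIs, and the interval held 0 (-0.99 to 0.39). *Cfp* was 1.56 and 0.990 in precursors (log2 ratio -0.65, -0.69 to -0.40), 1.70 and 1.56 in immature neutrophils and 2.58 and 2.02 in mature neutrophils, with intervals that held 0 in the last stages. Its level in mature neutrophils was the highest after macrophage-like and DC-like cells in both libraries, with intervals on summed UMIs (1.86 to 3.16 and 1.78 to 2.26) that overlapped those of plasmacytoid DC-like and monocyte-like cells.

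After thinning, 62.3% and 51.4% of mature neutrophils held a *C5ar1* UMI, against 0% and 0.396% of T-like cells, and 31.4% and 31.6% of precursors held a *C3* UMI, against 2.20% and 0.792%. *C3ar1* was nearly absent from neutrophils, with at most 6 UMIs in any stage of either library. It gave none in WT mature neutrophils, where 54 shallow cells allow a level of up to 0.127, and none in WT immature neutrophils (up to 0.0135). Of the *C1q* genes, *C1qb* gave 2 and 18 UMIs in immature neutrophils, a log2 ratio of 3.34, and at thinned depth 0% (0 of 188 cells, which allows up to 1.596%) and 0.758% of these cells held one, against 0.318% and 0.792% of T-like cells. In WT precursors 1 cell held 198 of the 204 *C1q* UMIs, and the log2 ratios of *C1qa*, *C1qb* and *C1qc* turned from -1.17, -0.71 and -0.83 to 1.61, 1.99 and 1.72 without the top cell of each library. In *Postn*-DTR mature neutrophils *C1qc* gave 18 UMIs, and 1.74% of the cells held one after thinning, against 0% of T-like cells.

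Among the measured genes, none of 3 was past 2-fold in mature neutrophils, where 14.1% of 5231 genes were higher in *Postn*-DTR and 8.22% lower. In immature neutrophils 1 of 4 was higher (*C1qb*, 4.11% of 7209 genes) and none lower (5.37%). In precursors none of 7 was higher (1.37% of 10616 genes) and 1 was lower (*C1qa*, 4.28%).

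**Figure D4:**
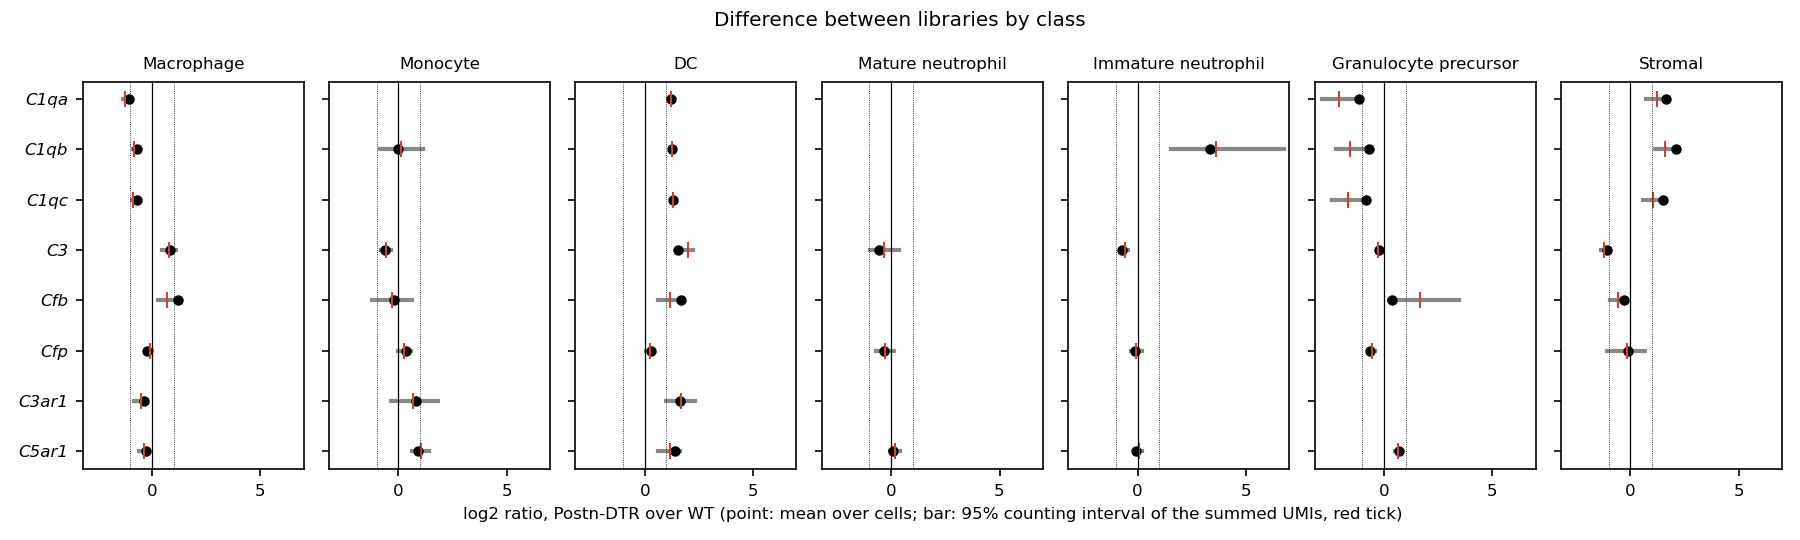
Log2 ratio of *Postn*-DTR over WT for each gene with at least 20 UMIs in the class and UMIs in both libraries. Points are ratios of means over cells, red ticks and grey bars are ratios of summed UMIs with their 95% counting intervals, and dotted lines mark 2-fold. The *C1q* points lie left of 0 in macrophage-like cells and right of 0 in DC-like cells, and *C3* lies left of 0 in stromal cells.

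Stromal cells, the class with 50 of the 84 *Postn* UMIs of the WT library and 9 of the 20 of the *Postn*-DTR library, had the highest *C3* level of all classes described. The level was 39.9 UMIs per 10000 in WT (3754 UMIs in 42 cells) and 18.7 in *Postn*-DTR (805 UMIs in 19 cells), with a log2 ratio of -1.09 (-1.35 to -1.12). The median stromal cell had 38.4 and 14.5, the middle 50% of the cells ran from 28.0 to 48.4 and from 7.83 to 20.6, and the highest cells had 110.1 and 51.6. These middle ranges did not overlap. A *C3* UMI was found in all 42 WT cells and in 18 of 19 *Postn*-DTR cells, and after thinning in 90.5% and 78.9%.

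Genes in general were lower in *Postn*-DTR stromal cells. The median log2 ratio of all 8150 genes measured was -0.49, and relative to it that of *C3* was -0.61. With immunoglobulin, T cell receptor, mitochondrial and ribosomal protein genes left out of the totals it was -0.73. Of 6 members measured, 1 was at least 2-fold lower (*C3*), where 27.8% of all genes were, and 3 were at least 2-fold higher (the *C1q* genes), where 4.49% were. Fibroblast markers summed to 137.1 in WT and 72.0 in *Postn*-DTR, mesothelial markers to 23.3 and 6.92, and plasma cell markers to 13.0 and 147.1. The stromal class was thus small and of different make-up in *Postn*-DTR, and the part of this in the *C3* difference was not tested.

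*Cfb* was also highest in stromal cells, at 2.60 in WT and 2.15 in *Postn*-DTR (249 and 85 UMIs), with a log2 ratio of -0.27 (-0.93 to -0.20 on summed UMIs) that was 0.21 relative to the median of all genes. In *Postn*-DTR its interval (1.35 to 2.09 on summed UMIs) overlapped that of macrophage-like cells (1.24 to 1.61), whereas in WT it did not (2.20 to 2.83 against 0.685 to 1.13). *Cfp* was low (0.400 and 0.368), and the receptors gave few UMIs (1 and 2 for *C3ar1*, 5 and 11 for *C5ar1*). The *C1q* levels of stromal cells rested on single cells. All 71 WT UMIs of *C1qa* came from 1 cell and 66 of the 83 *Postn*-DTR UMIs from another, and 1 WT and 2 *Postn*-DTR cells held 97.16% and 96.96% of all stromal *C1q* UMIs. Macrophage markers summed to 16.1 and 25.9 in the stromal class, and their part in these *C1q* values was not tested.

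The transcripts of each gene were then counted by the class that held them, a measure in which cell number, level per cell and depth per cell all enter. Macrophage-like cells held 47.9% of all *C1qa* UMIs in WT and 72.0% in *Postn*-DTR, and DC-like cells 46.3% and 20.7%. *C1qb* (46.3% and 75.6% in macrophage-like cells) and *C1qc* (51.0% and 78.1%) moved in the same way. DC-like cells were deeper than macrophage-like cells, and with all cells thinned to 1000 UMIs macrophage-like cells held 65.2% and 85.6% of the *C1qa* UMIs, 61.6% and 83.9% of *C1qb* and 67.1% and 84.9% of *C1qc*. The macrophage-like share was thus larger in *Postn*-DTR at either depth, although the level per macrophage-like cell was lower there.

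The 42 WT stromal cells, 0.485% of the library, held 40.6% of its *C3* UMIs, and the 19 *Postn*-DTR stromal cells (0.332%) held 14.5%. Granulocyte precursors held 28.5% and 49.6% of the *C3* UMIs. Both classes are deep, and after thinning the stromal share was 27.8% and 8.96% and the precursor share 13.0% and 28.4%. T-like cells, the class that should lack most of these transcripts, then held 14.65% and 1.24% of the *C3* UMIs. In WT this was above the precursor share. For *Cfb*, the stromal share was 45.0% and 18.9% and the macrophage-like share 11.7% and 52.3%, and after thinning, from 32 and 47 UMIs, 21.9% and 6.38%, and 21.9% and 78.7%. *Cfp* lay mostly in DC-like cells (37.3%) and B-like cells (22.6%) in WT, and in macrophage-like cells (41.2%) and precursors (16.2%, or 5.15% after thinning) in *Postn*-DTR. Mature neutrophils held 6.51% in *Postn*-DTR, or 19.4% after thinning. *C3ar1* was held by macrophage-like cells (59.9% and 75.8%). *C5ar1* was held mostly by neutrophils, with the immature stage at 41.7% and 18.8%, precursors at 25.7% and 29.5%, and the mature stage at 7.40% and 28.9%. The order of the stages changed with depth. After thinning the immature stage held 32.8% and 16.1%, precursors 11.1% and 7.21%, and the mature stage 20% and 55.7%. Macrophage-like cells then held 23.0% and 13.6% of the *C5ar1* UMIs.

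Summed over all cells, *C1qa* fell from 0.719 UMIs per 10000 of the library in WT to 0.445 in *Postn*-DTR (5765 and 3605 UMIs), *C3* from 1.15 to 0.685, and *Cfp* from 1.05 to 0.545, whereas *C5ar1* was 0.256 in WT and 0.439 in *Postn*-DTR. *C3ar1* (0.0314 and 0.0388), *Cfb* (0.0691 and 0.0554), *C1qb* (1.10 and 0.845) and *C1qc* (0.676 and 0.540) differed less.

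**Figure D5:**
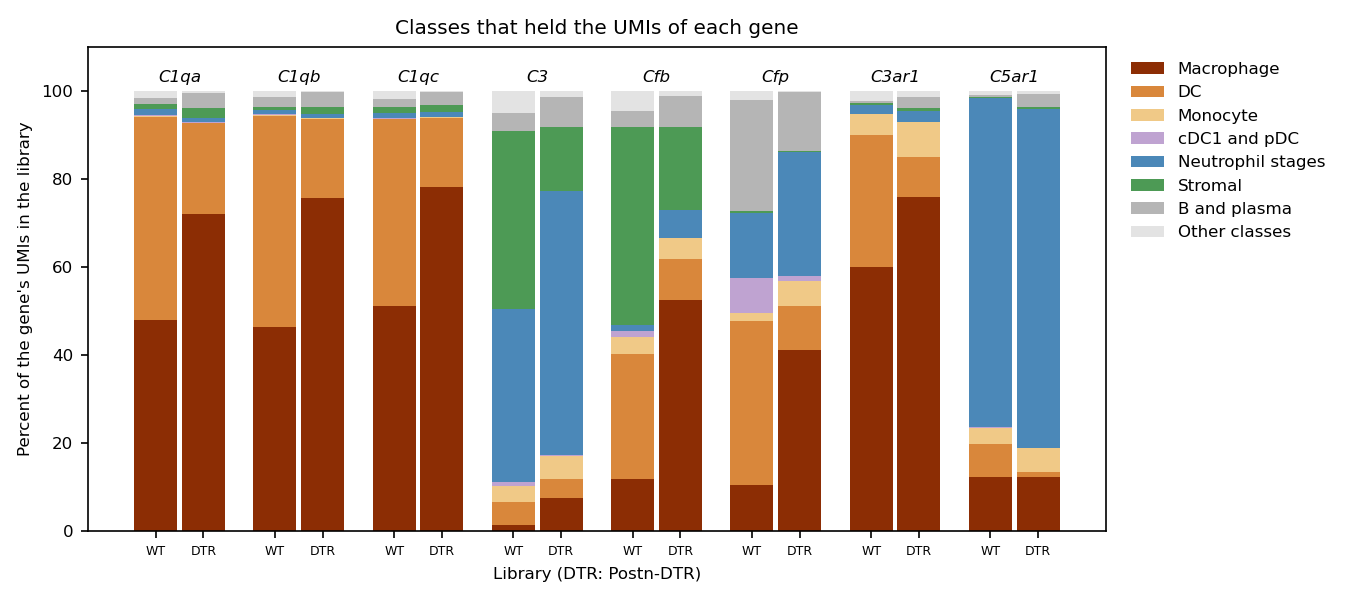
Percent of each gene's UMIs in the WT and *Postn*-DTR libraries that each class held (linear axis). Macrophage-like and DC-like cells together hold most *C1q* UMIs in both libraries, the stromal share of *C3* is 40.6% in WT and 14.5% in *Postn*-DTR, and neutrophil stages hold most *C5ar1* UMIs.

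Other complement genes were read from a list of 48, of which 40 were in the matrices and 20 had at least 20 UMIs in 1 of the 9 classes described. Of these, 18 were measured in macrophage-like cells, where 6 were at least 2-fold higher in *Postn*-DTR (*C1ra*, *C1rl*, *C1s1*, *Cfd*, *Clu* and *Cd93*) and none lower. Their median log2 ratio was 0.38, beside -0.15 for all genes. Of all genes, 7.5% were higher and 9.4% lower there. In DC-like cells 3 of 12 were higher and 2 lower (4.48% and 14.2% of all genes), and in monocyte-like cells 4 of 9 were higher and none lower (4.33% and 8.36%). In stromal cells 2 of 14 were higher (4.49%) and 4 lower (*C2*, *Colec12*, *Serping1* and *Cd55*), a share near the 27.8% of all genes that were lower.

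Among the genes that start the classical and lectin pathways, *Fcna*, a ficolin of the lectin pathway, was 27.5 and 18.3 in macrophage-like cells (log2 ratio -0.59), in the direction of *C1q*. *C4b*, the component cleaved after C1q binds, was 6.16 and 9.34 there (0.60), in the direction of *C3*. *C2*, which forms a convertase with C4b, was 5.87 and 2.29 in stromal cells (-1.36). Of the regulators, *Serping1*, the C1 inhibitor, was 16.7 and 7.69 in stromal cells (-1.12) and *Clu*, the terminal pathway inhibitor clusterin, 5.57 and 3.33 (-0.74). *Itgam* and *Itgb2*, which together encode complement receptor 3, were 6.19 and 5.17, and 6.55 and 5.13, in immature neutrophils, and *Cd93* was 0.968 and 1.97 in macrophage-like cells (1.02). *Cfd*, the adipocyte-derived protease that cleaves factor B, gave 3 and 20 UMIs in DC-like cells and 1 and 41 in macrophage-like cells. It was also found in 0% and 1.19% of T-like cells after thinning, so its appearance was not limited to these classes. No gene of the terminal pathway reached 20 UMIs in any of the 9 classes.

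The genes whose levels ran most like those of each member were taken over the 11 classes with at least 20 cells in both libraries (22 points, Pearson correlation of log2 levels). The points share 2 libraries and differ in depth, so the correlations are a description. *Gdf15*, *Fxyd2* and *Il6* were most like *C1qa* (r = 0.975, 0.959 and 0.953), *Adgrg6*, *Dab2* and *Ccl24* most like *C1qb* (0.965, 0.956 and 0.948), and *Gdf15*, *Ccl8* and *Ltc4s* most like *C1qc* (0.951, 0.945 and 0.940). *Nupr1*, *Il1a* and *4930455G09Rik* were most like *Cfb* (0.947, 0.940 and 0.935), and *Atp6v0b*, *Pirb* and *Ehd1* most like *Cfp* (0.937, 0.930 and 0.929). For the receptors, *4930455G09Rik*, *Rab3il1* and *Ccl24* were most like *C3ar1* (0.971, 0.969 and 0.969), and *Pilrb2*, *Mtus1* and *Fgd4* most like *C5ar1* (0.986, 0.983 and 0.978). *Sort1*, *Dram1* and *Nhsl2* were most like *C3* (0.938 each), in points without the stromal class, which had fewer than 20 cells in *Postn*-DTR. With at least 10 cells, which brings in stromal cells and was chosen after the data were seen, *Rhou* was most like *C3* (0.872, 30 points). Among the members, the *C1q* chains ran together (0.955 to 0.978), *C3ar1* ran with *C1qb* (0.957) and *C5ar1* with *C3* (0.868). Over the 30 points these values were lower, at 0.867 to 0.941, 0.712 and 0.583.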

How the data were processed

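Omental cells of WT and *Postn*-DTR mice were captured on the Chromium platform, 1 library of pooled mice per group. The labels name the 5′ v2 kit, Cell Ranger 6.0.0 and mm10, whereas the study's methods name a 3′ kit and another Cell Ranger version, so which transcript end was counted is uncertain. The authors deposited natural log values, ln(1 + UMIs per 10000). Whole UMIs were recovered from the steps within each cell (within 0.1 for 99.954% of the WT and 99.89% of the *Postn*-DTR values).

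Cells with 200 to 7500 genes and at most 25% mitochondrial UMIs were analysed together, with no batch correction, in Seurat 5.3.0 (R 4.3.3, sctransform 0.4.2) with 3000 variable features, 30 principal components and Louvain resolution 0.8 (31 clusters), or 1.6 for the finer clusters (38). V, D and J segments and all listed complement genes were left out of the features. A cluster was named when at least 3 markers, and 0.6 of a list with a lead of 0.1, were 2-fold above the other cells and in 10% of the cells, and when under 25% of its cells were doublets, thresholds set after the clusters had been seen. Scrublet (scanpy 1.11.5), whose automatic threshold failed in WT, was read at a score of 0.25 and called 135 WT (1.56%) and 103 *Postn*-DTR cells (1.80%), left out only as an alternative.

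Intervals are exact (Poisson, conditional binomial or Clopper-Pearson, scipy 1.17.1). The limit given for a count of 0 is 3 UMIs. The script for ratios was tested on simulated data. The members and gene lists were chosen with earlier results of these data known. All 8 members are named, as are the up to 3 other complement genes of each role with the highest level and the 3 genes most correlated with each member among those with at least 200 UMIs, except a regulator that is not reported here. Alternatives covered the summary of cells, doublets, resolution, clustering features, cell filter, depth, single cells, totals, pseudocount, low counts and centring.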

Additional observations from a re-analysis of the deposited data

Results flagged for a closer look

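The same contrast of *Postn*-DTR with WT ran in opposite directions in different classes, by at least 2-fold each way, for 2 genes. The log2 ratio of *C1qa* was 1.217 in DC-like and 1.643 in stromal cells, but -1.056 in macrophage-like cells and -1.17 in granulocyte precursors, and the stromal values and the WT precursor value rested mainly on 1 cell per library. *C1qb* and *C1qc* also ran opposite ways in DC-like and macrophage-like cells, but by less than 2-fold in the latter. That of *C3* was 1.524 in DC-like cells, but -2.046 in plasmacytoid DC-like cells (35 and 1 UMIs) and -1.093 in stromal cells. In DC-like cells 129 of the 239 *Postn*-DTR *C3* UMIs came from 1 cell, and without the top cells the ratio was below 2-fold. In plasmacytoid DC-like cells 27 of the 35 WT UMIs came from 1 cell. With 1 library per group, none of these differences was tested.

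Signal was also found in classes outside those described. After thinning to 1000 UMIs, 6.372% of WT and 3.316% of *Postn*-DTR B-like cells (median 5613 and 5011 UMIs) held a *Cfp* UMI, against 0.223% and 0.198% of T-like cells (median 4650 and 4306 UMIs). A *C5ar1* UMI was held by 11.11% and 22.22% of mast or basophil-like cells (2 of 18 and 2 of 9 left after thinning, of 26 and 13), against 0% and 0.396% of T-like cells. Single cells gave 9 of the 11 WT and 16 of the 18 *Postn*-DTR *C5ar1* UMIs of this class.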

How the results depend on the processing

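No paired analysis was possible because each group holds 1 library. Of 487 recomputed ratios, 418 moved by less than their counting interval, 67 moved further and 2 that were past 2-fold changed sign. These were *C1qa* in granulocyte precursors without the top cell of each library (1.608) and *Cfb* in DC-like cells thinned to 1000 UMIs (-4.271). For the latter, 8 WT UMIs and 0 *Postn*-DTR UMIs were left. Thinned to 2000 UMIs, 2.30% of WT and 8.70% of *Postn*-DTR DC-like cells held a *Cfb* UMI, the direction of the main ratio. In all, 17 ratios changed sign, among them *C1qb* (1.989) and *C1qc* (1.724) in precursors without the top cells. Of the 189 recomputed values of the main comparisons, 148 stayed within their interval, none past 2-fold changed sign, and 2 smaller ones did (stromal *Cfb* and *C5ar1* in mature neutrophils, given next).

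Log2 ratios in macrophage-like cells on summed UMIs were -1.266 (*C1qa*), -0.835 (*C1qb*), -0.871 (*C1qc*) and -0.109 (*Cfp*), and that of *C3* in stromal cells -1.233. Thinning gave -0.919 (*C1qa*), -1.127 (*C3ar1*), -0.952 (stromal *C3*) and -0.259 (*C5ar1* in mature neutrophils, against 0.10). Centring on all genes gave -0.909 (*C1qa*), -0.562 (*C1qb*), -0.536 (*C1qc*), -0.089 (*Cfp*), -0.608 (stromal *C3*) and 0.212 (stromal *Cfb*). At least 500 genes per cell gave -0.645 (*C1qb*) and -0.102 (*Cfp*). Totals without receptor, mitochondrial and ribosomal genes gave -0.647 (*C1qb*) and -0.730 (stromal *C3*), which was -1.215 without the top cells. Equal weight to the finer macrophage clusters gave -0.769 (*C1qc*) and -0.624 (*Cfp*).

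Thinning gives each cell the same weight, and the share of UMIs held by macrophage-like cells was then 65.192% in WT and 85.578% in *Postn*-DTR (*C1qa*), 61.631% and 83.888% (*C1qb*), 67.111% and 84.923% (*C1qc*), 17.877% and 45.293% (*Cfp*) and, in WT, 77.083% (*C3ar1*). The stromal share was 27.848% and 8.955% (*C3*) and 21.875% and 6.383% (*Cfb*), and the mature neutrophil share of *C5ar1* 20% and 55.738%. Without the top cells the stromal share of *C3* was 39.191% and 12.136% and that of *Cfb* in *Postn*-DTR 13.539%, and with complement genes kept for clustering the *Postn*-DTR *C3* share was 16.640%.

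The share of genes past 2-fold moved with the settings, from 16.9% to 9.51% (at least 100 UMIs), 27.3% (at least 1 UMI) and 7% (pseudocount 0.1) in macrophage-like cells, from 18.6% to 10.8%, 21.3% and 4.39% in DC-like cells, and from 32.3% to 26.9%, 42.2% and 20.5% in stromal cells. The cause was not tested. A count of 0 allows the highest levels in *Postn*-DTR plasmacytoid DC-like (0.292) and cDC1-like cells (0.130) and in WT mature neutrophils (0.127), and few *Postn*-DTR stromal cells (19) were found.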

Other observations

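At the finer resolution, a cluster led by *Orm1*, *Camp* and *Ngp* (52 WT and 113 *Postn*-DTR cells) was named as immature neutrophils. It stood beside the one led by *Ltf* (185 and 269 cells). The *Ltf* cluster was nearly unchanged from the immature class of the main clustering (189 and 272 cells). Precursors, by contrast, went from 175 and 285 cells to 127 and 175. By these counts, most cells of the *Orm1* cluster had been in the precursor class. *C3* had a level of 8.18 and 6.33 UMIs per 10000 in the *Orm1* cluster, above 4.06 and 2.52 in the *Ltf* cluster. *C5ar1* was lower in the *Orm1* cluster (2.49 and 2.62) than in the *Ltf* cluster (4.16 and 3.95). In B-like cells, *Cfp* was 1.08 in WT and 0.496 in *Postn*-DTR in a cluster of 1130 and 512 cells, and 0.408 and 0.332 in one of 1457 and 410 cells. These values are given with no explanation.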
